A study of Homo sapiens with 60 samples.

Results

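The BCL2 family apoptosis regulators were followed as 10 genes in A549 cells, a line derived from a human lung carcinoma, after 24 h with an ethanol extract of a medicinal herb or of a herbal formula. The members were taken by name from the table of 60675 gene IDs. The pro-apoptotic members were BBC3 (which encodes PUMA), PMAIP1 (NOXA), BCL2L11 (BIM), BID, BIK, BAX and BAK1, 7 genes in all. The anti-apoptotic members were BCL2L1 (BCL-XL), MCL1 and BCL2L2 (BCL-W), 3 genes in all. Each of the 10 passed the filter on low counts, which left 18396 genes for testing.

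Proteins of this family decide whether the outer mitochondrial membrane stays intact. BAX and BAK1 are the effectors that form pores in it and release cytochrome c, which activates caspases. BCL-XL, MCL1 and BCL-W hold the effectors in check, and the BH3-only proteins PUMA, NOXA, BIM, BID and BIK bind the guardians or act on the effectors directly. BBC3 and PMAIP1 are known to be induced at the level of transcription under several kinds of stress. Many carcinoma lines depend on BCL-XL and MCL1 for survival.

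The extract groups were each of 8 extracts at a low, a medium and a high dose. The doses were 15.2, 76 and 380 µg/mL for Polygalae Radix and 14.8, 74 and 370 µg/mL for Aucklandiae Radix, each with 2 libraries a dose. For all other extracts they were 20, 100 and 500 µg/mL. Guibi-tang, Saengmaek-san, Menthae Herba and Saposhnikoviae Radix had 3 libraries a dose, Soyo-san had 2 and Okbyeongpung-san had 1. The vehicle group, cells given 0.1% DMSO without extract by the sample labels and 2% by the series description, held 3 libraries. By the series description, an extract that inhibited the cells below the common top dose was given at its IC20 and at dilutions of it. Polygalae Radix and Aucklandiae Radix are the extracts whose high dose lies below the common one. The sources used here do not say whether replicates were separate cultures, and a p-value here reflects variation among libraries that may be technical. In RNA from whole cultures, fewer cells of a kind and less RNA per cell cannot be told apart.

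Total expected counts ran from 17113963 to 33363661 per library over 60 libraries. The libraries fell into 2 classes by the level of a single gene, ENSG00000282955, which was at most 3.44 CPM (counts scaled to a common library total) in 38 libraries of class 1 and at least 19.3 CPM in 22 of class 2. Every library of vehicle, Soyo-san and Okbyeongpung-san was of class 2, every one of Menthae Herba and Aucklandiae Radix was of class 1, and the other extracts held both. Among all genes tested, 48% differed between the classes when class was added to the fit. By the library names, the vehicle libraries also form a set of their own, so each comparison with vehicle is also one between library sets, and the effects of set and treatment cannot be told apart there. Each comparison with vehicle is therefore given beside the comparison of that extract's high with its low dose, in which no vehicle library takes part. The epithelial keratin KRT8 (441 to 4927 CPM) and AKR1B10, a reductase high in this line, were abundant in every library. CDKN2A, which is deleted in A549 cells, had at most 5 counts in a library, PTPRC, a leukocyte marker, at most 1 and CD3E none. The fibroblast collagen COL1A1 and the phagocyte gene CD68 were detected in every library (at least 10.9 and 2.02 CPM), whereas COL1A2 reached at most 2 counts.

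By GENCODE 29 on GRCh38, the build the submitters name, all 10 are protein-coding genes. The BH3-only genes are BBC3 (ENSG00000105327) at chr19:47220822-47232766 on the minus strand, PMAIP1 (ENSG00000141682) at chr18:59899948-59904306 on the plus strand, BCL2L11 (ENSG00000153094) at chr2:111119378-111168447 on the plus strand, BID (ENSG00000015475) at chr22:17734138-17774770 on the minus strand and BIK (ENSG00000100290) at chr22:43110748-43129712 on the plus strand. The effector genes are BAX (ENSG00000087088) at chr19:48954815-48961798 on the plus strand and BAK1 (ENSG00000030110) at chr6:33572547-33580293 on the minus strand. The guardian genes are BCL2L1 (ENSG00000171552) at chr20:31664452-31723989 on the minus strand, MCL1 (ENSG00000143384) at chr1:150574551-150579738 on the minus strand and BCL2L2 (ENSG00000129473) at chr14:23298790-23311759 on the plus strand.

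Scaled by merged exon length, the most abundant members were BCL2L1 (median 47.2 CPM per kb over 60 libraries), BAX (44.2) and MCL1 (37.2). BAK1 (10.1), BCL2L2 (8.16), BID (7.05), PMAIP1 (5.17) and BCL2L11 (4.59) stood lower, and BBC3 had 1.69 CPM per kb. BIK, a BH3-only gene of the endoplasmic reticulum, was nearly silent, with 0 to 0.424 CPM per library and a median of 0.173 CPM. The lowest count of BBC3 in any library was 64, whereas BIK had 0 counts in 1 library and a few in most others.

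At the high dose, 22 of 70 member tests against vehicle passed an adjusted p of 0.05 (edgeR quasi-likelihood F-test, Benjamini-Hochberg over all genes), 14 higher and 8 lower, shares to be read beside 11.9% higher and 12.1% lower over all genes and the same 7 comparisons. Polygalae Radix changed 7 of 10 members against a background of 59.6% of all genes called, Menthae Herba 6 (29.6% of all genes), Aucklandiae Radix 5 (35.7%), Soyo-san 3 (28.6%) and Guibi-tang 1 (9.56%). Against the low dose of the same extract, Polygalae Radix changed 8 (57% of all genes), Aucklandiae Radix 3 (18.4%), Menthae Herba 3 (15.5%) and Guibi-tang 2 (2.94%). With only 10 members, most of these shares are not far from those of all genes, in Aucklandiae Radix as in Polygalae Radix. The widest gap is that of Menthae Herba over vehicle, at 6 of 10 beside 29.6%. The counts alone therefore say little about the family. The extracts that changed members did so in different ways. In Aucklandiae Radix BBC3 and BAX rose and BCL2L11 fell, in Menthae Herba BBC3 and PMAIP1 rose and BCL2L1 fell, and in Polygalae Radix PMAIP1, BCL2L11 and BCL2L2 rose while BAX, BID and BCL2L1 fell. The heat map of log2 fold changes sets the extracts side by side.

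**Figure D1:**
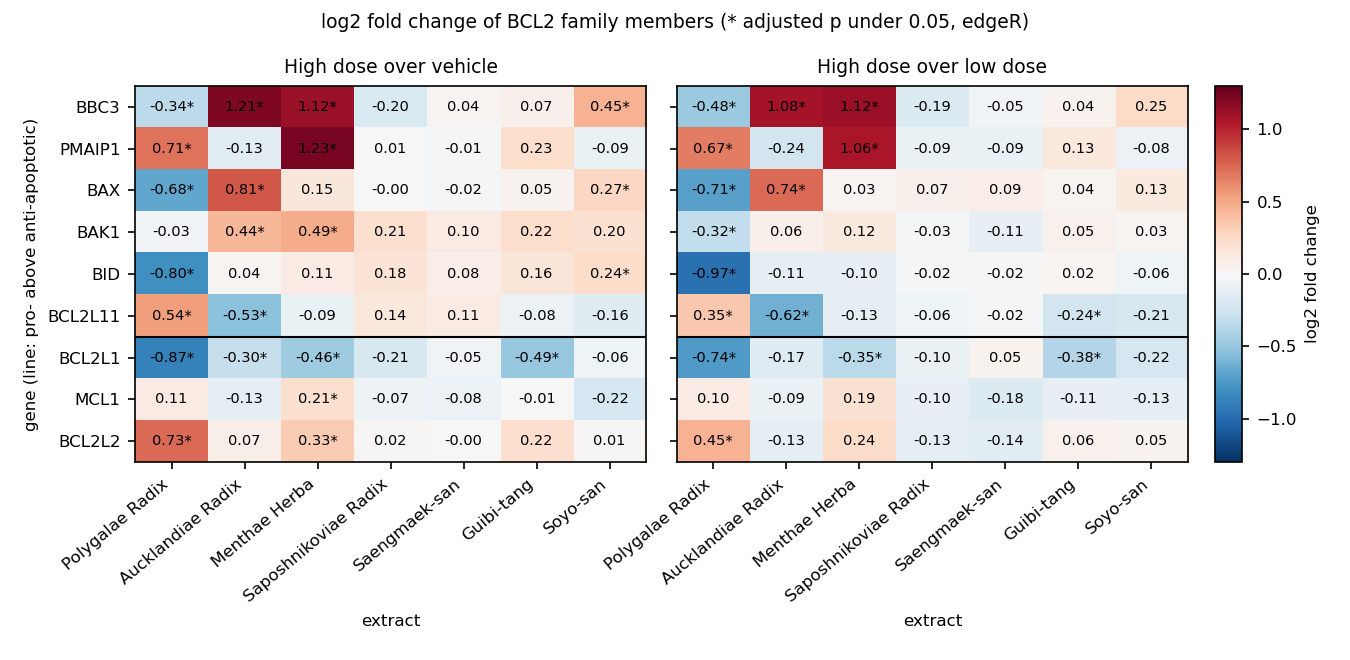
log2 fold change (edgeR) of 9 members in rows for 7 extracts in columns, for the high dose over vehicle (left) and the high over the low dose (right); an asterisk marks an adjusted p under 0.05. The reddest cells are BBC3 in Aucklandiae Radix (1.21 and 1.08) and BBC3 and PMAIP1 in Menthae Herba, and the bluest are BAX, BID and BCL2L1 in Polygalae Radix; BIK, at a few reads per library, is left out.

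BCL2L1 was called at the high dose in 4 of 7 extracts, lower each time against vehicle, and BBC3 in 4, higher in 3 and lower in 1. BAX was called in 3, higher in 2 and lower in 1. The median log2 fold change of the 7 pro-apoptotic members against vehicle was -0.03 in Polygalae Radix, 0.44 in Aucklandiae Radix and 0.49 in Menthae Herba, and that of the 3 anti-apoptotic members 0.11, -0.13 and 0.21, beside 0.05, 0.02 and -0.0033 over all genes tested. Each of these pro-apoptotic medians is the value of BAK1, whose level differed between library classes. Over the low dose the pro-apoptotic medians were -0.32, 0.06 and 0.03 in the same order of extracts. Those of the anti-apoptotic members were 0.10, -0.13 and 0.19, beside 0.04, 0.008 and -0.0075 over all genes.

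The promoters of the 3 members with the largest rises among those that passed the test are shown because BBC3 rose together with BAX under one extract and together with PMAIP1 under another. They are the 250 bases before a RefSeq transcription start of each gene (GRCh38.p14), written in the direction of transcription. BBC3 lies on the minus strand (chr19:47232668-47232917), PMAIP1 on the plus strand (chr18:59899746-59899995) and BAX on the plus strand (chr19:48954625-48954874). Capitals mark the E-box CACGTG in BBC3 and BAX and the core of the cAMP response element, TGACGT, in PMAIP1, where it reads ACGTCA.
BBC3: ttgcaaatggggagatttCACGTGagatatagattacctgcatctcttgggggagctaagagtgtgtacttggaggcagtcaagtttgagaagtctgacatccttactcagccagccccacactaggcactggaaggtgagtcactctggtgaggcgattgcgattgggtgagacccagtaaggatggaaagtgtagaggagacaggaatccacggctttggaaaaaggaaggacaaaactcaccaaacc
PMAIP1: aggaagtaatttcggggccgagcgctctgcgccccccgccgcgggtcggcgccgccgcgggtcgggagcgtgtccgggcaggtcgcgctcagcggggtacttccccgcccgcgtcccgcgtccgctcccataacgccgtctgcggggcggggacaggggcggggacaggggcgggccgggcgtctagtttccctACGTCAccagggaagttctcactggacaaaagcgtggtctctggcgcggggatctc
BAX: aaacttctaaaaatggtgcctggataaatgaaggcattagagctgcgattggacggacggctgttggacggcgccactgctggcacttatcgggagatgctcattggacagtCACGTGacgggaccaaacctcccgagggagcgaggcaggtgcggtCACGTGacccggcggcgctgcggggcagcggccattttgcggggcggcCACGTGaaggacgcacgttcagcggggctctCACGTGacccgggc
The BAX window held 4 E-boxes, at 138, 93, 45 and 14 bases before the start. The BBC3 window held 1 E-box, 232 bases before the start, and the PMAIP1 window 1 cAMP response core, 56 bases before it. Over 35116 such windows searched on both strands, 6.34% held an E-box and 7.1% a cAMP response core. These motifs were chosen from a longer list after the sequences had been seen. Windows of BID held an E-box too, and BID was not called at the high dose of Aucklandiae Radix or Menthae Herba. The table of promoters held 7 of the 10 members, in 12 windows, and a match in it is a description of sequence, not a site of binding.

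BBC3 encodes a BH3-only protein that binds every anti-apoptotic member. In Aucklandiae Radix it had 12.4 and 11.7 CPM at the high dose, against 5.94 and 5.46 CPM at the low dose and 5.34, 5.47 and 4.76 CPM in vehicle. Both high-dose libraries lay above every low-dose and vehicle library. The rise was 2.32-fold over vehicle (log2 1.21 ± 0.13 SE, edgeR adjusted p = 2.08e-09) and 2.11-fold over the low dose (log2 1.08 ± 0.15, edgeR adjusted p = 4.79e-07). In Menthae Herba BBC3 had 13.3, 10.1 and 10.6 CPM at the high dose, against 5.27, 4.96 and 5.42 CPM at the low dose. The high-dose libraries again lay apart from all low-dose and vehicle libraries. It rose by log2 1.12 ± 0.12 both over vehicle (edgeR adjusted p = 1.82e-09) and over the low dose (edgeR adjusted p = 2.82e-09). At the medium dose BBC3 averaged 5.81 ± 0.36 CPM in Aucklandiae Radix (SD, n = 2) and 5.46 ± 0.50 CPM in Menthae Herba (SD, n = 3), near the vehicle mean of 5.19 ± 0.38 CPM (SD, n = 3). BBC3 did not differ between library classes past the threshold (class 2 minus class 1, log2 0.08 ± 0.07), and with class in the fit the log2 fold changes over vehicle were 1.29 and 1.20.

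Soyo-san and Polygalae Radix changed BBC3 by less. In Soyo-san BBC3 had 6.27 and 7.96 CPM at the high dose, against 5.43 and 6.48 CPM at the low dose and 4.76 to 5.47 CPM in vehicle. The groups did not overlap with vehicle but did overlap with the low dose. BBC3 differed by log2 0.45 ± 0.14 over vehicle (edgeR adjusted p = 0.0151) and 0.25 ± 0.16 over the low dose, which did not pass. Without Soyo-san high dose replicate 2 or vehicle replicate 3 the call was lost, the log2 fold change falling to as little as 0.27 and the edgeR adjusted p reaching 0.338. In Polygalae Radix BBC3 had 5.86 and 5.56 CPM at the low, 3.32 and 3.95 CPM at the medium and 4.72 and 3.58 CPM at the high dose. The medium and high doses lay below every vehicle library, with log2 fold changes of -0.50 ± 0.15 (edgeR adjusted p = 0.0167) and -0.34 ± 0.15 (edgeR adjusted p = 0.0498). The medium-dose call was lost without vehicle replicate 2 or medium dose replicate 2 (edgeR adjusted p up to 0.163). The high-dose call was lost without vehicle replicate 1 or 2 or Polygalae Radix high dose replicate 3 (edgeR adjusted p up to 0.511) and with class in the fit (-0.30, edgeR adjusted p = 0.0841). Over the low dose the log2 fold change was -0.48 ± 0.16 (edgeR adjusted p = 0.0107), lost without high dose replicate 3 (edgeR adjusted p = 0.212).

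PMAIP1 encodes NOXA, a BH3-only protein that binds chiefly MCL1. In Menthae Herba it had 30.2, 23.6 and 22.9 CPM at the high dose, against 12.1, 11.0 and 13.6 CPM at the low dose and 11.4, 10.1 and 11.3 CPM in vehicle. No low-dose or vehicle library came near the high-dose libraries. PMAIP1 rose 2.35-fold over vehicle (log2 1.23 ± 0.11, edgeR adjusted p = 2.30e-11) and 2.09-fold over the low dose (log2 1.06 ± 0.11, edgeR adjusted p = 1.14e-09). In Polygalae Radix it had 11.3 and 11.2 CPM at the low, 11.9 and 12.2 CPM at the medium and 16.8 and 18.8 CPM at the high dose. Both medium-dose libraries lay above every vehicle and low-dose library, but the medium dose did not pass (log2 0.14 ± 0.13 over vehicle, edgeR adjusted p = 0.508). The high dose lay above all of these, with a log2 fold change of 0.71 ± 0.13 over vehicle (edgeR adjusted p = 7.51e-06) and 0.67 ± 0.14 over the low dose (edgeR adjusted p = 8.89e-05). In Aucklandiae Radix, where BBC3 more than doubled, PMAIP1 had 10.0 and 9.83 CPM at the high dose, against 11.8 and 11.6 CPM at the low dose. That difference did not pass (log2 -0.24 ± 0.14, edgeR adjusted p = 0.291), nor did the one from vehicle (-0.13 ± 0.13). PMAIP1 was lower in class 2 than in class 1 (log2 -0.18 ± 0.05, edgeR adjusted p = 0.00653), and with class in the fit it was 1.05 over vehicle in Menthae Herba and 0.62 in Polygalae Radix.

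BCL2L11 encodes BIM, which activates BAX and BAK1 and binds all guardians. Polygalae Radix and Aucklandiae Radix moved it in opposite directions. In Polygalae Radix it had 32.2 and 33.0 CPM at the low, 35.9 and 34.0 CPM at the medium and 43.5 and 39.5 CPM at the high dose, against 28.6, 29.4 and 27.5 CPM in vehicle. Every Polygalae Radix library lay above the vehicle libraries, as did every Saposhnikoviae Radix library and those of Guibi-tang at the low and medium dose. The Polygalae Radix high dose lay above its other doses. The log2 fold change over vehicle was 0.29 ± 0.07 at the medium (edgeR adjusted p = 0.00315) and 0.54 ± 0.07 at the high dose (edgeR adjusted p = 2.01e-08), and 0.35 ± 0.08 for the high over the low dose (edgeR adjusted p = 2.30e-04). In Aucklandiae Radix BCL2L11 fell to 19.6 and 19.8 CPM at the high dose, against 30.8 and 29.8 CPM at the low dose. These were the lowest BCL2L11 values of all 60 libraries, with log2 fold changes of -0.53 ± 0.08 over vehicle (edgeR adjusted p = 3.78e-07) and -0.62 ± 0.08 over the low dose (edgeR adjusted p = 1.41e-07). In Guibi-tang it had 27.4, 27.8 and 25.8 CPM at the high dose, against 31.3, 33.4 and 30.8 CPM at the low dose. The groups did not overlap, and the log2 fold change of -0.24 ± 0.07 passed (edgeR adjusted p = 0.0299), but 5 of the 6 fits that left out a library lost the call (edgeR adjusted p up to 0.197), as the fit without low dose replicate 3 alone kept it. BCL2L11 shares 727 exon bases with the antisense lincRNA MIR4435-2HG, and the sources used here do not give the strand setting of the counting, without which reads of the pair cannot be told apart.

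BID and BIK are the other BH3-only members. BID links the death receptors to mitochondria once caspase-8 has cut it. In Polygalae Radix it had 16.0 and 17.1 CPM at the high dose, against 30.6 and 34.4 CPM at the low dose and 28.7, 28.8 and 29.2 CPM in vehicle. The high-dose libraries were the lowest of the series for BID, with log2 fold changes of -0.80 ± 0.09 over vehicle (edgeR adjusted p = 6.34e-10) and -0.97 ± 0.10 over the low dose (edgeR adjusted p = 2.96e-11). In Soyo-san BID had 36.5 and 34.5 CPM at the low, 30.6 and 27.9 CPM at the medium and 35.8 and 32.4 CPM at the high dose. The low and high doses lay above vehicle and the medium dose overlapped with it. The log2 fold changes over vehicle were 0.30 ± 0.09 (low, edgeR adjusted p = 0.0262), 0.02 ± 0.09 (medium, edgeR adjusted p = 0.954) and 0.24 ± 0.09 (high, edgeR adjusted p = 0.0346), and the low- and high-dose calls were each lost whichever of the 5 libraries was left out. BIK averaged 0.320 ± 0.052 CPM in Aucklandiae Radix at the high dose (SD, n = 2), 0.314 ± 0.097 CPM in Saengmaek-san at the high dose (SD, n = 3) and 0.113 ± 0.0064 CPM in vehicle (SD, n = 3). Its log2 fold changes of 1.48 ± 0.65 and 1.43 ± 0.61 did not pass (edgeR adjusted p = 0.0710 and 0.192).

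BAX is the effector that moves from the cytosol to mitochondria, whereas BAK1 resides there. In Aucklandiae Radix BAX had 201 and 189.6 CPM at the high dose, against 120.0 and 114 CPM at the low dose and 113, 104 and 117 CPM in vehicle. Those 2 libraries were the highest of the series, and no other high-dose library exceeded 137 CPM. BAX rose 1.75-fold over vehicle (log2 0.81 ± 0.07, edgeR adjusted p = 4.67e-12) and 1.67-fold over the low dose (log2 0.74 ± 0.08, edgeR adjusted p = 1.40e-09). In Polygalae Radix BAX had 120.3 and 106 CPM at the low, 97.0 and 103 CPM at the medium and 68.1 and 70.8 CPM at the high dose. The high-dose libraries were the lowest of the series, with log2 fold changes of -0.68 ± 0.07 over vehicle (edgeR adjusted p = 1.98e-10) and -0.71 ± 0.08 over the low dose (edgeR adjusted p = 5.45e-10). In Soyo-san BAX had 132 and 137 CPM at the high dose, against 126 and 120.1 CPM at the low dose. It rose over vehicle by 0.27 ± 0.07 (edgeR adjusted p = 0.00382), a call lost without high dose replicate 2 (edgeR adjusted p = 0.0683), and the difference from the low dose did not pass (0.13 ± 0.08). In Menthae Herba, where BBC3 and PMAIP1 more than doubled, BAX had 121, 128 and 122 CPM at the high dose, against 115, 115 and 132 CPM at the low dose. The groups overlapped, and the log2 fold change was 0.03 ± 0.06 over the low dose and 0.15 ± 0.06 over vehicle, neither past the threshold, although with class in the fit the second was 0.18 (edgeR adjusted p = 0.0467).

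For BAK1 the comparisons with vehicle and with the low dose parted. In Aucklandiae Radix it had 25.6 and 25.2 CPM at the high dose, against 24.7 and 24.0 CPM at the low dose and 18.6, 18.6 and 19.3 CPM in vehicle. Low and high dose both lay above vehicle, with log2 fold changes at the high dose of 0.44 ± 0.13 over vehicle (edgeR adjusted p = 0.00587) and 0.06 ± 0.14 over the low dose, and the call over vehicle was lost without high dose replicate 2 (edgeR adjusted p = 0.0505). In Menthae Herba it had 24.9, 27.1 and 27.0 CPM at the high dose, against 24.6, 22.4 and 25.5 CPM at the low dose, with log2 fold changes of 0.49 ± 0.11 over vehicle (edgeR adjusted p = 0.00108) and 0.12 ± 0.11 over the low dose. BAK1 was lower in class 2, that of the vehicle libraries, than in class 1 (log2 -0.24 ± 0.05, edgeR adjusted p = 2.21e-05). With class in the fit the log2 fold change over vehicle was 0.19 in Aucklandiae Radix (edgeR adjusted p = 0.146) and 0.24 in Menthae Herba (edgeR adjusted p = 0.0490). In Polygalae Radix the high-dose libraries had 14.7 CPM (class 2) and 21.8 CPM (class 1), against 23.1 and 22.9 CPM at the low dose, both of class 1. The log2 fold change over the low dose was -0.32 ± 0.14 (edgeR adjusted p = 0.0459), and -0.08 for the class 1 libraries, of which the high dose has only 1. The call was lost without any library but high dose replicate 3 (edgeR adjusted p up to 0.659).

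**Figure D2:**
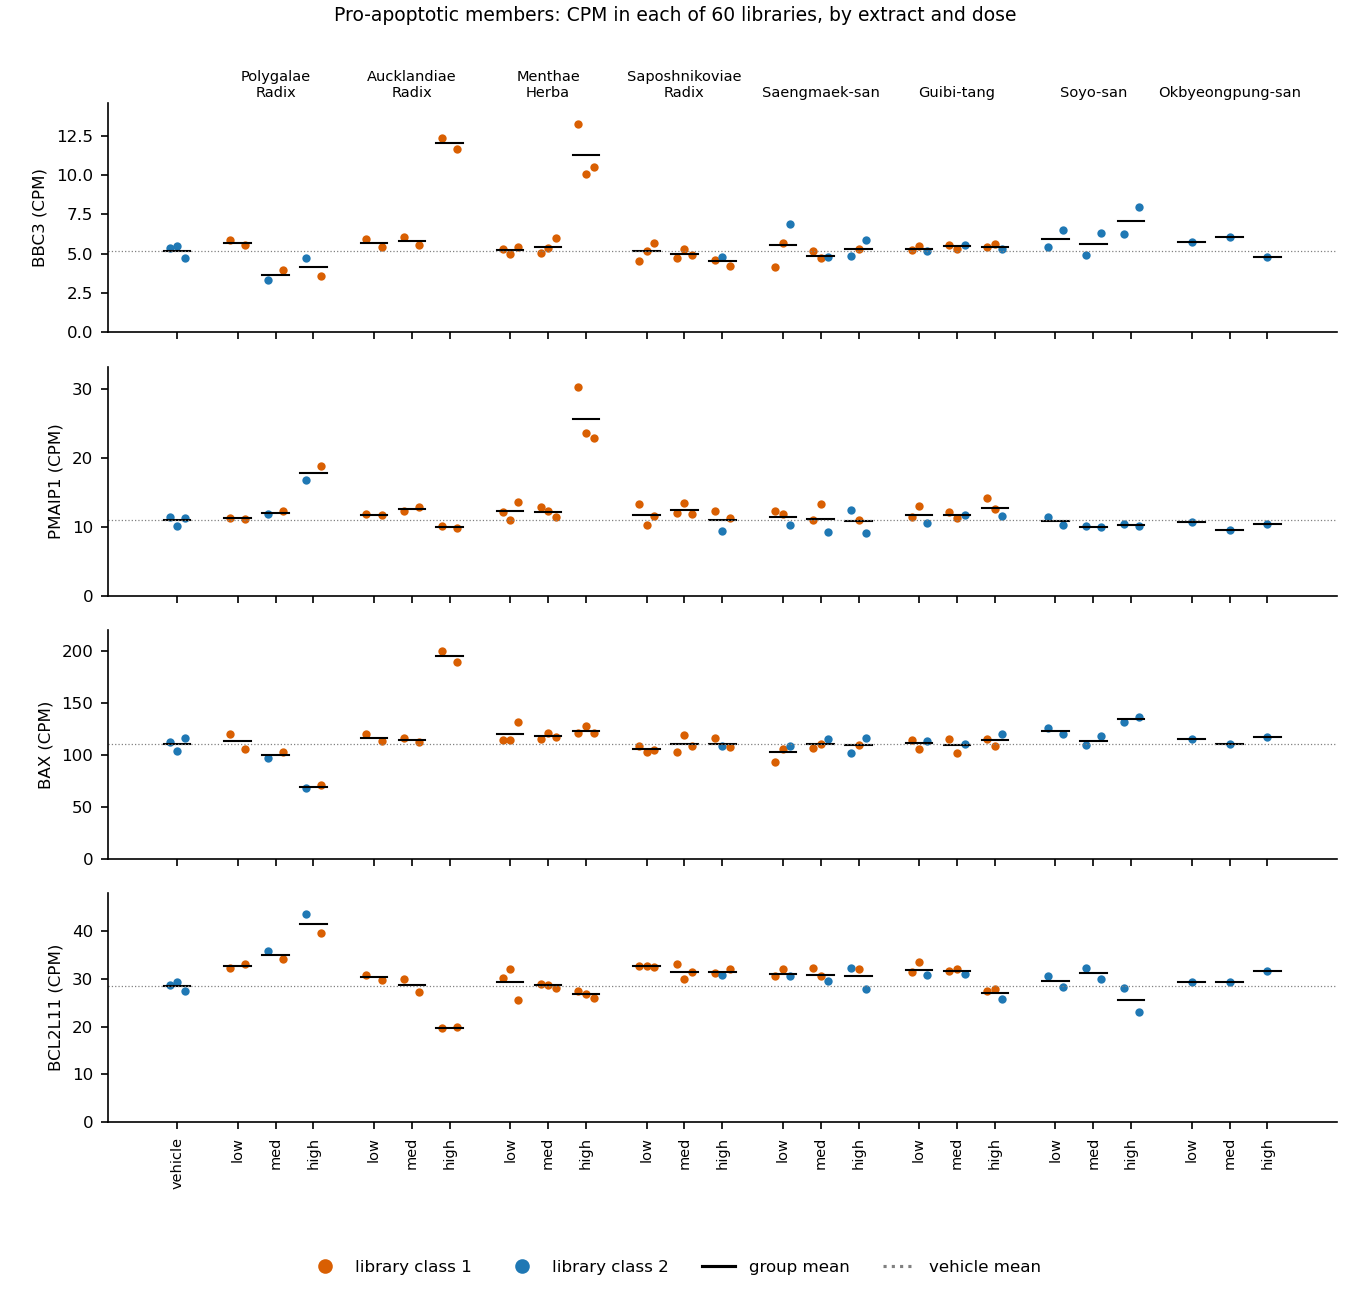
CPM of BBC3, PMAIP1, BAX and BCL2L11 (vertical axes, linear, from 0) in each of 60 libraries, by extract and dose from vehicle and low to high; points are libraries coloured by class, bars are group means and the dotted line is the vehicle mean. The high doses of Aucklandiae Radix and Menthae Herba stand alone above 10 CPM for BBC3, and BAX lies near 70 CPM at the high dose of Polygalae Radix.

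BCL2L1 encodes BCL-XL, the most abundant guardian transcript per length in these cells. It was called lower over vehicle in 4 of 7 extracts and over the low dose in 3. With class in the fit it was lower over vehicle in 3, and MCL1 in 5. In Polygalae Radix it had 157 and 159.9 CPM at the low, 148 and 129 CPM at the medium and 106 and 84.2 CPM at the high dose, against 172, 173 and 178 CPM in vehicle. Levels were lower at each higher dose and all lay below vehicle, with log2 fold changes over vehicle of -0.33 ± 0.10 at the medium (edgeR adjusted p = 0.0173) and -0.87 ± 0.10 at the high dose (edgeR adjusted p = 1.78e-09), and -0.74 ± 0.11 for the high over the low dose (edgeR adjusted p = 3.76e-07). The medium-dose call was lost without medium dose replicate 3 (edgeR adjusted p = 0.189). In Guibi-tang BCL2L1 had 113, 114 and 145 CPM at the high dose, against 159, 147 and 179 CPM at the low dose. The highest value of each dose was the 1 library of class 2. On the log2 scale BCL2L1 was -0.49 ± 0.09 over vehicle (edgeR adjusted p = 2.40e-04) and -0.38 ± 0.09 over the low dose (edgeR adjusted p = 0.00824), and against the low dose it was -0.43 within class 1 (edgeR adjusted p = 4.01e-07). In class 2 each dose has 1 library, so the values of 145 CPM at the high and 179 CPM at the low dose are given without a test. Leaving out high dose replicate 1 or 2 or low dose replicate 3 ended the low-dose call (edgeR adjusted p up to 0.116).

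In Menthae Herba BCL2L1 had 124, 123 and 132 CPM at the high dose, against 154, 163 and 166 CPM at the low dose. The groups did not overlap, with log2 fold changes of -0.46 ± 0.09 over vehicle (edgeR adjusted p = 1.19e-04) and -0.35 ± 0.09 over the low dose (edgeR adjusted p = 0.00513). BCL2L1 was higher in class 2 than in class 1 (log2 0.26 ± 0.02, edgeR adjusted p = 2.01e-13), and with class in the fit the change over vehicle in Menthae Herba was -0.20 (edgeR adjusted p = 5.72e-04). In Aucklandiae Radix it had 143 and 141 CPM at the high dose, against 162 and 157 CPM at the low dose. The log2 fold change of -0.30 ± 0.10 over vehicle (edgeR adjusted p = 0.0208) was -0.04 with class in the fit (edgeR adjusted p = 0.619) and was lost without vehicle replicate 3 or either high-dose library (edgeR adjusted p up to 0.117). Against the low dose it was -0.17 ± 0.11, which did not pass, but passed within class 1 (-0.17, edgeR adjusted p = 0.00914). All Aucklandiae Radix libraries are of class 1, so both fits compare the same libraries and only the estimate of spread differs. In Soyo-san, where every library was of class 2, BCL2L1 had 168 and 167 CPM at the high dose, against 198 and 193 CPM at the low dose and 172 to 178 CPM in vehicle. The difference from the low dose did not pass (-0.22 ± 0.11, edgeR adjusted p = 0.455) but did within class 2 (-0.22, edgeR adjusted p = 0.00646). Here too the libraries are the same and only the estimate of spread differs. BCL2L1 shares 1424 exon bases with the antisense gene ABALON, so its reads may include those of that gene.

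MCL1 encodes a short-lived guardian whose protein is turned over quickly. In Menthae Herba it had 194, 177 and 194 CPM at the high dose, against 168, 162 and 164 CPM at the low dose and 158, 162 and 167 CPM in vehicle. The high-dose libraries lay above both other groups, with log2 fold changes of 0.21 ± 0.08 over vehicle (edgeR adjusted p = 0.0438) and 0.19 ± 0.08 over the low dose (edgeR adjusted p = 0.105). The call over vehicle was kept in 1 of the 6 fits that left out a library, the one without high dose replicate 2. With class in the fit the value over vehicle was -0.01 (edgeR adjusted p = 0.902). Within class 1 the rise over the low dose passed (0.19, edgeR adjusted p = 4.24e-04), from the same libraries with another estimate of spread. MCL1 was lower in class 2 than in class 1 (log2 -0.22 ± 0.02, edgeR adjusted p = 5.24e-11). In Soyo-san MCL1 had 141 and 138 CPM at the high dose, against 155 and 149 CPM at the low dose, and all 4 lay below the lowest vehicle library. The log2 fold change over vehicle was -0.22 ± 0.09 (edgeR adjusted p = 0.0641) and passed within class 2 (-0.22, edgeR adjusted p = 2.45e-04). Vehicle and Soyo-san are wholly of class 2, so only the estimate of spread differs between these fits. In Polygalae Radix the class 2 library of the high dose had 154 CPM and the class 1 library 196 CPM, and the log2 fold change over vehicle was 0.11 ± 0.09.

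BCL2L2 encodes BCL-W. In Polygalae Radix it had 42.3 and 34.1 CPM at the low, 35.2 and 41.3 CPM at the medium and 45.0 and 59.1 CPM at the high dose, against 32.5, 29.6 and 32.1 CPM in vehicle. The high dose lay above the other groups, and the class 1 library above the class 2 library. On the log2 scale BCL2L2 was 0.73 ± 0.12 over vehicle (edgeR adjusted p = 1.09e-06) and 0.45 ± 0.13 over the low dose (edgeR adjusted p = 0.00306), the second lost without high dose replicate 3 or low dose replicate 3 (edgeR adjusted p up to 0.252). In Menthae Herba BCL2L2 had 40.2, 39.7 and 38.6 CPM at the high dose, against 34.3, 33.7 and 32.3 CPM at the low dose. The log2 fold change of 0.33 ± 0.11 over vehicle (edgeR adjusted p = 0.0172) was 0.07 with class in the fit (edgeR adjusted p = 0.559). Over the low dose it was 0.24 ± 0.11, which did not pass but did within class 1 (edgeR adjusted p = 0.0150). That fit compares the same Menthae Herba libraries with another estimate of spread. The call over vehicle was also lost without vehicle replicate 2 (edgeR adjusted p = 0.0796). BCL2L2 was lower in class 2 (log2 -0.26 ± 0.04, edgeR adjusted p = 1.93e-07). It shares 813 exon bases on the same strand with the readthrough gene BCL2L2-PABPN1, so its counts are uncertain to the extent that the authors' counting split reads between the pair.

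**Figure D3:**
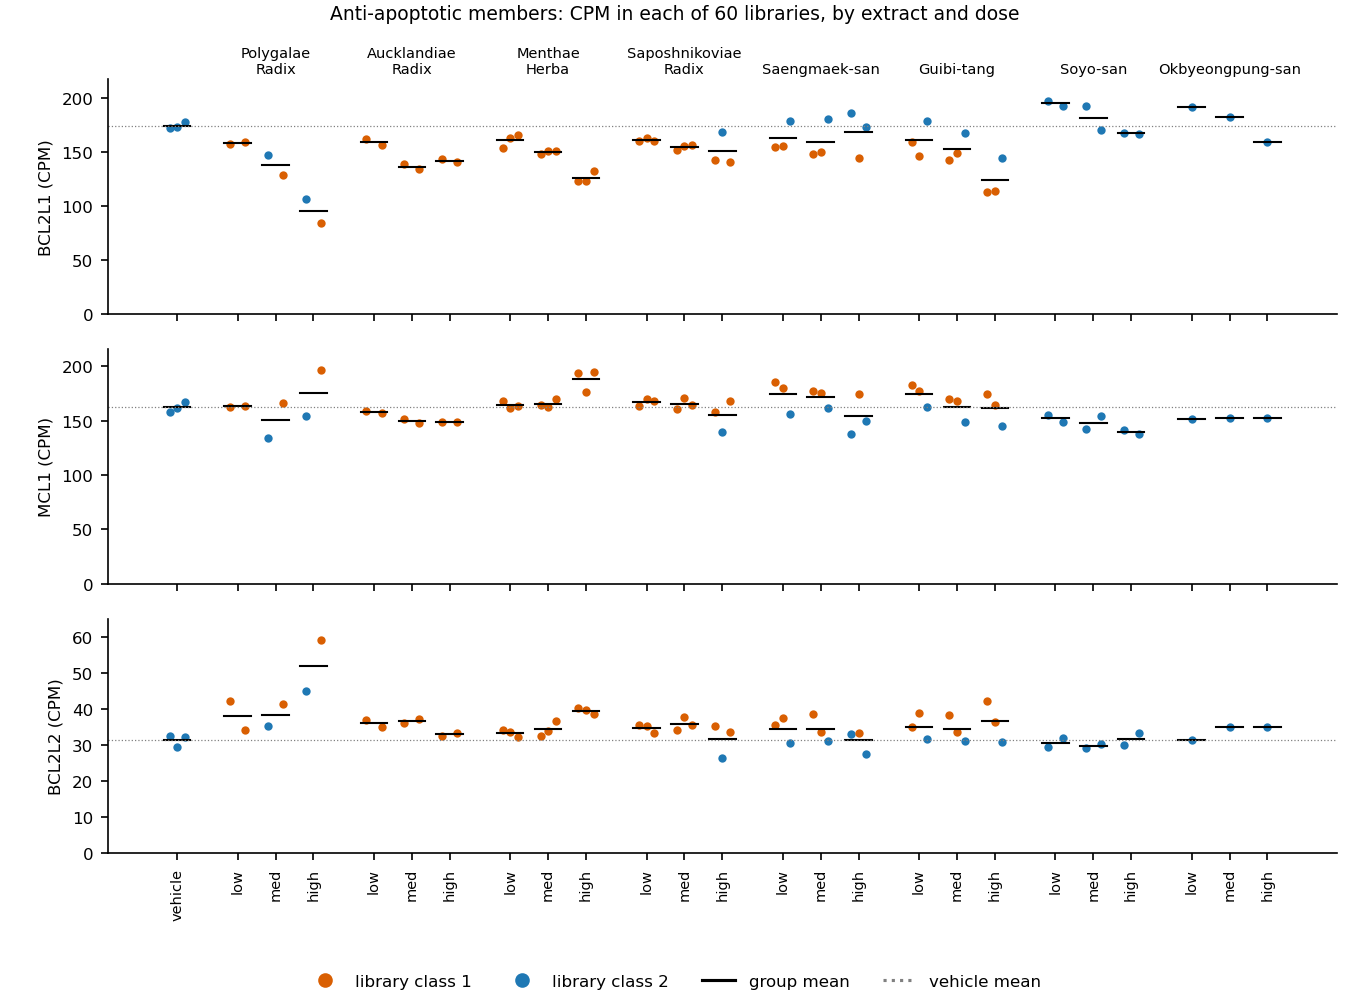
CPM of BCL2L1, MCL1 and BCL2L2 (vertical axes, linear, from 0) in each of 60 libraries, by extract and dose from vehicle and low to high; points are libraries coloured by class, bars are group means and the dotted line is the vehicle mean. BCL2L1 declines with dose in Polygalae Radix, to 106 and 84.2 CPM, and within mixed groups the class 2 libraries are higher for BCL2L1 and lower for MCL1 in Guibi-tang and Saengmaek-san at the low dose.

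**Figure D4:**
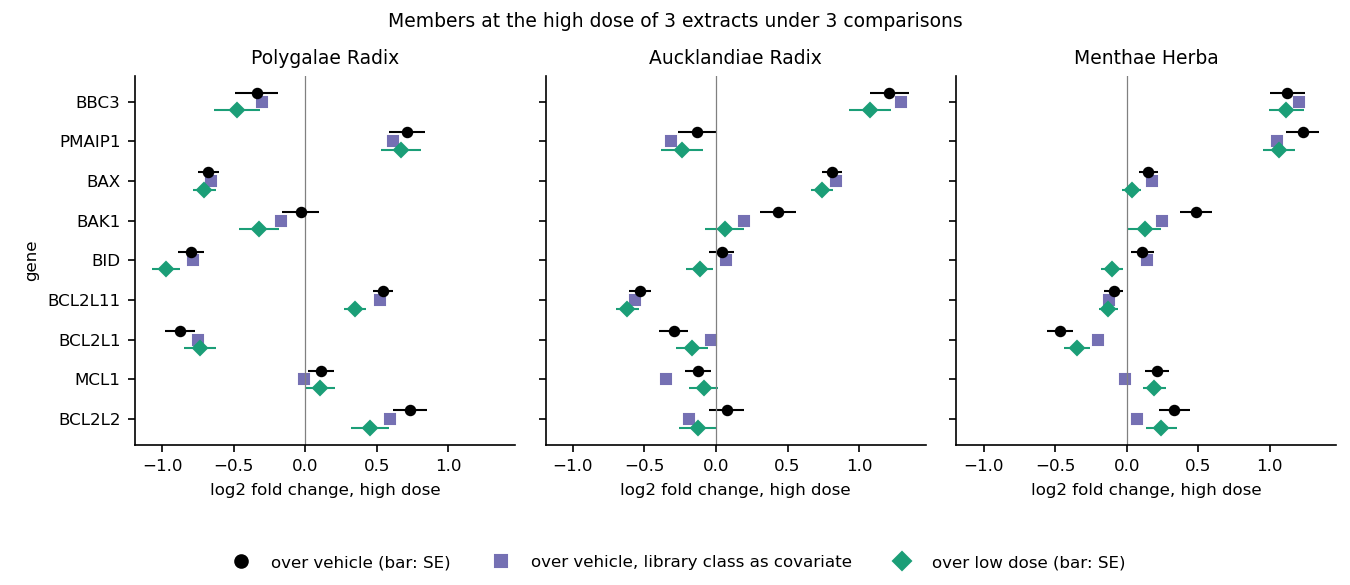
log2 fold change (horizontal axis) of 9 members at the high dose of 3 extracts: over vehicle (circles, bars 1 SE), over vehicle with library class as a covariate (squares, without bars) and over the low dose (diamonds, bars 1 SE). The 3 marks of BBC3 lie on the same side of 0 in each extract, whereas BAK1 and BCL2L1 in Aucklandiae Radix lie nearer 0 once class is in the fit (0.19 and -0.04).

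With library class in the fit, edgeR called 6 members over vehicle in Polygalae Radix (62.2% of all genes), 4 in Aucklandiae Radix (37.3%), 5 in Menthae Herba (31.3%), 2 in Guibi-tang (18.9%) and 4 in Soyo-san (36.4%). MCL1 was among them as lower in Aucklandiae Radix (-0.35, edgeR adjusted p = 1.08e-06), Guibi-tang (-0.16, edgeR adjusted p = 0.00951) and Soyo-san (-0.22, edgeR adjusted p = 3.42e-04), where the fit without class had called it in none. In Aucklandiae Radix, as in Menthae Herba, every library was of class 1 and every vehicle library of class 2. There the class term was estimated from groups of other extracts that held both classes. Without class, MCL1 in Aucklandiae Radix was -0.13 ± 0.09 over vehicle and -0.09 ± 0.10 over the low dose, neither past the threshold. Over the low dose that fit called 8 members in Polygalae Radix (61% of all genes), 4 in Aucklandiae Radix (24.4%), 5 in Menthae Herba (21.5%), 2 in Guibi-tang (5.4%), 1 in Soyo-san (3.58%), 1 in Saposhnikoviae Radix (0.223%) and 0 in Saengmaek-san (0.332%). The member in Saposhnikoviae Radix was BCL2L1 (-0.19, edgeR adjusted p = 0.0325). MCL1 was higher over the low dose in Polygalae Radix (0.21, edgeR adjusted p = 9.47e-04).

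Saposhnikoviae Radix and Saengmaek-san changed no member at the high dose by edgeR, with 1.04% and 3.79% of all genes called against vehicle. By unadjusted p under 0.05 there were 3 members in Saposhnikoviae Radix and 1 in Saengmaek-san, and DESeq2 also called 0 in each. Over vehicle, BBC3 was -0.20 ± 0.13 and PMAIP1 0.01 ± 0.12 in Saposhnikoviae Radix, and BBC3 was 0.04 ± 0.13 and PMAIP1 -0.01 ± 0.12 in Saengmaek-san, on the log2 scale. Against the low dose no member was called by edgeR in Saposhnikoviae Radix (0.0707% of all genes), Saengmaek-san (0.0707%) or Soyo-san (1.24%), with 0, 1 and 1 members at an unadjusted p under 0.05 and 0 by DESeq2. With class in the fit, MCL1 passed as lower over vehicle in both, at -0.22 in Saposhnikoviae Radix (edgeR adjusted p = 0.00223) and -0.16 in Saengmaek-san (edgeR adjusted p = 0.0115), where 7.01% and 15.7% of all genes were called. Guibi-tang moved BCL2L1 and BCL2L11 as given above, and its BBC3 (5.40, 5.61 and 5.32 CPM at the high dose) lay within or close to the vehicle range.

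Differences between extracts of one library set were tested as interactions of extract with dose. The rise of the high over the low dose in Polygalae Radix minus that in Aucklandiae Radix passed for 7 of 10 members, where 45.9% of all genes passed. It was -1.55 ± 0.22 for BBC3 (edgeR adjusted p = 1.43e-07), -1.45 ± 0.11 for BAX (edgeR adjusted p = 4.24e-14) and 0.97 ± 0.11 for BCL2L11 (edgeR adjusted p = 2.09e-09). These 3 genes moved in opposite directions in the 2 extracts. PMAIP1 (0.91 ± 0.20) and BCL2L2 (0.58 ± 0.19) were also higher in Polygalae Radix by this test, the second not without high or low dose replicate 3 of Polygalae Radix, and BID (-0.86 ± 0.14) and BCL2L1 (-0.57 ± 0.16) lower. For Menthae Herba minus Saposhnikoviae Radix 2 members passed, where 6.43% of all genes did. They were BBC3 (1.31 ± 0.18, edgeR adjusted p = 1.16e-06) and PMAIP1 (1.15 ± 0.16, edgeR adjusted p = 1.94e-06). For Guibi-tang minus Saengmaek-san edgeR called 0 members (0.451% of all genes), with 2 at an unadjusted p under 0.05 and 0 by DESeq2. The nearest was BCL2L1 (-0.43 ± 0.13, edgeR adjusted p = 0.182), whose call depended on the fit. It passed with class in the fit (-0.34, edgeR adjusted p = 4.44e-04) and with a block for replicate number (-0.43, edgeR adjusted p = 0.0133), and did not pass in a fit of only the libraries compared (-0.43, edgeR adjusted p = 0.998). It also passed without the filter on low counts, and without Guibi-tang high dose replicate 3 or Saengmaek-san high dose replicate 2 (edgeR adjusted p down to 0.0254).

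At the medium dose 4 of 70 tests passed against vehicle (5.49% of all genes over the same 7 comparisons), BBC3, BCL2L11 and BCL2L1 in Polygalae Radix (18.3% of all genes) and BCL2L1 in Aucklandiae Radix (5.59%). The BCL2L1 value there was -0.35 ± 0.10 (edgeR adjusted p = 0.0346), with 139 and 134 CPM at the medium dose, against 172 to 178 CPM in vehicle, and no fit that left out a library kept the call. With class in the fit 8 passed (11.8% of all genes), and with only the libraries compared 14 (17.3%). At the low dose 2 of 70 tests passed (6.04% of all genes), BAK1 in Menthae Herba (0.36 ± 0.11, edgeR adjusted p = 0.0311, 13.1% of all genes) and BID in Soyo-san (10.7% of all genes). At the low dose 9 passed with class in the fit (13.6% of all genes) and 19 with only the libraries compared (22.8%). In the other comparisons with vehicle edgeR, without class, called no member. At the medium dose the share of all genes called was 5.54% in Menthae Herba, 7.94% in Saposhnikoviae Radix, 0.391% in Saengmaek-san, 0.582% in Guibi-tang and 0.0652% in Soyo-san. At the low dose it was 6.39% in Polygalae Radix, 7.24% in Aucklandiae Radix, 4.1% in Saposhnikoviae Radix, 0.522% in Saengmaek-san and 0.261% in Guibi-tang. In those comparisons 0 to 3 members had an unadjusted p under 0.05, and DESeq2 called 5 members over all low doses. The BAK1 call held in 1 of 6 fits that left out a library, the one without low dose replicate 2.

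Okbyeongpung-san, with 1 library per dose, has no replicate check and no test. Its log2 ratios to the vehicle mean are given as values. BBC3 was 0.14, 0.23 and -0.11 at the low, medium and high dose, PMAIP1 -0.04, -0.21 and -0.07, and BAX 0.06, -0.01 and 0.08. BIK, with a few reads per library, had 0.277, 0.114 and 0.191 CPM at the low, medium and high dose. BCL2L1 was 0.14, 0.06 and -0.13, with 192, 182 and 159.5 CPM, the order low above medium above high. The means of Polygalae Radix, Menthae Herba, Saposhnikoviae Radix, Guibi-tang and Soyo-san had the same order, and those of Aucklandiae Radix and Saengmaek-san did not.

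The members act with other proteins of the apoptosis pathway, described here from lists of named genes by how many passed and by their median. In Aucklandiae Radix at the high dose, 6 of 10 genes of the death receptor arm (receptors and their partners) rose over vehicle and 0 fell. There 18.5% of all genes were called higher, and the median log2 fold change of the list was 0.39 beside 0.02 over all genes. The receptors FAS (0.86 ± 0.10) and TNFRSF10B (0.86 ± 0.09) were among those that rose. Over the low dose 5 genes of the list rose, where 9.12% of all genes were called higher. Of 5 caspase inhibitors, BIRC3 rose to 108 CPM at the high dose, against 25.7 CPM at the low dose (2.06 ± 0.14), and BIRC5 fell. Of the 11 tested genes of the family outside the 10 members, 5 rose and 2 fell over vehicle (18.5% and 17.3% of all genes), led by BCL2A1 (1.49 ± 0.17), a further guardian, BMF (0.93 ± 0.21), a further BH3-only gene, and BNIP3L (0.61 ± 0.07), which acts in mitophagy.

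In Menthae Herba DDIT3, the stress factor CHOP, rose to 28.4 CPM at the high dose, against 8.69 CPM at the low dose (1.71 ± 0.14), with TRIB3 (1.51 ± 0.10), a target of the same stress response, and ATF3 (0.90 ± 0.12). HRK, a BH3-only gene at a low level, had 1.43 CPM at the high dose, against 0.362 CPM at the low dose (2.02 ± 0.34). Of 15 genes of the mitochondrial machinery (cytochrome c, caspases, channels), 7 rose over vehicle, where 14.6% of all genes were called higher, and 1, DFFA, over the low dose (6.07%). The comparison with vehicle is here also one of class 1 with class 2.

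In Polygalae Radix 0 of the 15 machinery genes rose and 7 fell over vehicle, where 29.5% of all genes were called lower, and the median was -0.21 beside 0.05 over all genes. Over the low dose 0 rose and 10 fell, where 29.1% of all genes were called lower, with a median of -0.39 beside 0.04. AIFM1, a flavoprotein of the intermembrane space, had 21.5 CPM at the high dose, against 105 CPM at the low dose (-2.29 ± 0.07), and the outer membrane channels VDAC1 (-1.38 ± 0.07) and VDAC3 (-1.41 ± 0.10) fell as well. STAT3, a transcription factor, fell (-1.24 ± 0.05), while ATF3, a stress-induced one, rose (1.50 ± 0.14). Of the 11 other family genes 3 rose and 6 fell over the low dose (27.9% and 29.1% of all genes), led by HRK (2.52 ± 0.40), BCL2 (1.23 ± 0.20), the founding guardian, and BCL2A1 (-1.20 ± 0.22). In Soyo-san BAD, a BH3-only gene, rose over vehicle (0.55 ± 0.12), and BIRC6 fell (-0.97 ± 0.21). Of the 15 machinery genes 3 rose over vehicle and 1, APAF1 (-0.68 ± 0.14), the scaffold of the apoptosome, fell. Over all genes 13% were called higher and 15.6% lower in that comparison. Against the low dose of Soyo-san edgeR called 1 of the 10 genes of the death receptor arm, where 0.837% of all genes were called lower. It was TNFRSF10D (-0.30 ± 0.07), named here after its value was seen.

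Over the means of 25 groups the members did not form a common pattern. The largest Spearman correlations between members, by size, were -0.70 for BAX with BCL2L11, -0.69 for PMAIP1 with BCL2L1, -0.68 for BCL2L1 with BCL2L2, 0.68 for PMAIP1 with BCL2L2, -0.65 for BBC3 with BCL2L11 and 0.62 for BBC3 with BAX (n = 25 groups, which share library sets and classes, so no p is given). Among 10052 genes, those of most similar rank order were GSTZ1 (0.83) and PACSIN3 (0.79) for BBC3, UBA2 (0.89) and RAP2C (0.87) for PMAIP1, and MICOS13 (0.89) and APRT (0.87) for BAX. For BAK1 they were RPL31 (0.98) and PSMB5 (0.97), and for BCL2L1 NHERF1 (0.94) and SMTN (0.94). BAK1, BCL2L1, PMAIP1, MCL1 and BCL2L2 are members whose level differed between library classes. BCL2L1 was higher in class 2 and the others were lower. How far class shapes their correlations was not tested. With Pearson's correlation BCL2L1 kept both genes and BBC3, PMAIP1, BAX and BAK1 kept neither.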

How the data were processed

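RNA of A549 cells was sequenced in 60 libraries. Per the submitters' processing notes, the tools were RSEM 1.3.3, STAR 2.7.3a, FastQC 0.11.9 and Trim Galore 0.6.5 and the build GRCh38. The sources used here give neither the annotation release nor the strand setting of the counting. The authors deposited RSEM expected counts per gene and library, and 9.95% of the values have decimals; they were rounded to whole numbers here. The members, gene lists and motifs were chosen with earlier results of these data known. So was the division of libraries by ENSG00000282955, with a limit of 10 CPM.

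Genes were filtered with filterByExpr and scaled by TMM, and 57 libraries in 22 groups (35 residual degrees of freedom) were fitted together with edgeR 4.0.16 (glmQLFit and glmQLFTest, R 4.3.3). Okbyeongpung-san was left out of the fit because it has 1 library per dose. P-values were adjusted by Benjamini and Hochberg over 18396 genes in each of 31 comparisons, at a threshold of 0.05. The SE of a log2 fold change is its size divided by the square root of F. CPM are scaled by TMM over all libraries. The fit was tested on simulated data. Genes of the other lists were named as up to 3 per list and comparison with the largest change past the threshold, and a few further ones, such as DFFA, were chosen after their values were seen. One gene of the lists, and the counts that rest on it, are not reported here.

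Alternatives were DESeq2 1.42.0, no filter, a fit of only the libraries compared, a block for replicate number, leaving out each library and, chosen after seeing the data, library class as a covariate and fits within a class. The fits within a class used all 57 libraries, with a mean for each group in each class. At totals of 17113963 to 33363661 counts per library, BIK had only a few reads. Replicates were compared pair by pair, and in each of the 48 pairs the counts differed by more than sampling noise (lowest chi-square per gene 2.31). The spread was unequal among groups, whereas the fit pools it over groups. The value was 119 in Polygalae Radix at the medium and 90.2 at the high dose, where each pair joins 1 library of each class. It reached 92.3 in Saengmaek-san at the high dose, against 2.49 to 2.9 in vehicle. Promoters are from RefSeq (GRCh38.p14).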

Additional observations from a re-analysis of the deposited data

Results flagged for a closer look

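The response of 9 member and extract pairs differed between extracts of the same library set, by the interaction of extract with dose (high minus low dose, log2, edgeR with Benjamini-Hochberg adjustment). For Polygalae Radix minus Aucklandiae Radix, BBC3 was -1.55 ± 0.22 (SE, edgeR adjusted p = 1.43e-07) and BAX -1.45 ± 0.11 (edgeR adjusted p = 4.24e-14). BID was -0.86 ± 0.14 (edgeR adjusted p = 1.45e-06) and BCL2L1 -0.57 ± 0.16 (edgeR adjusted p = 0.00280). PMAIP1 was 0.91 ± 0.20 (edgeR adjusted p = 2.59e-04), BCL2L11 0.97 ± 0.11 (edgeR adjusted p = 2.09e-09) and BCL2L2 0.58 ± 0.19 (edgeR adjusted p = 0.00954). The BCL2L2 difference was lost without high or low dose replicate 3 of Polygalae Radix (edgeR adjusted p up to 0.168). For Menthae Herba minus Saposhnikoviae Radix, BBC3 was 1.31 ± 0.18 (edgeR adjusted p = 1.16e-06) and PMAIP1 1.15 ± 0.16 (edgeR adjusted p = 1.94e-06).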

How the results depend on the processing

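Counts of members called depended on how spread and library class were handled. With class as a covariate they were 2 for Guibi-tang over vehicle (1 without it), 1 each for Saengmaek-san and Saposhnikoviae Radix over vehicle (0), 5 for Menthae Herba (3), 1 for Saposhnikoviae Radix (0) and 1 for Soyo-san (0) for the high over the low dose, 1 for Guibi-tang minus Saengmaek-san (0, the member being BCL2L1), 9 of 70 for all low doses (2) and 8 for all medium doses (4), with 13.6% and 11.8% of all genes called (6.04% and 5.49%). Within class 1 they were 5 for Menthae Herba and 1 for Guibi-tang over the low dose. Within class 2 they were 1 for Saengmaek-san and 5 for Soyo-san over vehicle, and 1 for Soyo-san over the low dose. For Menthae Herba and Soyo-san these fits compare the same libraries as the fit without class, so only the estimate of spread differs. Saposhnikoviae Radix at the high dose and Guibi-tang at each dose have 1 library in class 2, so no count is given for them there. The share of all genes called within a class is not given, so these counts cannot be set against a background. MCL1 in Menthae Herba over vehicle changed sign with class in the fit, at -0.01 (edgeR adjusted p = 0.902). With only the libraries compared in the fit, counts over the low dose were 0 for Guibi-tang, 5 for Menthae Herba and 4 for Polygalae Radix, and 19 for all low and 14 for all medium doses over vehicle (22.8% and 17.3% of all genes). Without the filter they were 1 for Guibi-tang over the low dose, 1 for Guibi-tang minus Saengmaek-san and 1 for Soyo-san over vehicle. For these, and for the counts over the low dose with only the libraries compared, no share of all genes is given. DESeq2 called 5 for all low doses (11.2% of all genes). The cause was not tested.

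By the rule used, replicate numbers were not taken to pair the libraries. In none of the 16 comparisons with 3 pairs did every correlation of deviations exceed 0.1. Single pairs did exceed it, and for the high over the low dose the highest was 0.414 in Guibi-tang and 0.34 in Saengmaek-san. In both extracts replicate 3 was of class 2 at every dose, so the rule does not show that pairing is absent. A block for replicate number gave 5 calls for all low doses (6.76% of all genes), 1 for Guibi-tang minus Saengmaek-san, 4 for Menthae Herba over the low dose and 4 for Soyo-san over vehicle. No share of all genes is given for the other comparisons under the block.

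Leaving out each library gave over vehicle 3 to 5 calls for Aucklandiae Radix, 4 to 6 for Menthae Herba, 6 to 8 for Polygalae Radix, 0 to 3 for Soyo-san and 1 for Guibi-tang, and over the low dose 3, 3 to 4 and 6 to 7 for the first 3 extracts and 0 to 1 for Guibi-tang. It gave 6 to 7 for Polygalae Radix minus Aucklandiae Radix, 2 for Menthae Herba minus Saposhnikoviae Radix, 0 to 1 for Guibi-tang minus Saengmaek-san, 0 to 2 for all low and 2 to 4 for all medium doses. No share of all genes is given for these counts. The alternatives for single members cover only those called at the high dose over vehicle or over the low dose. Of these alternatives, 388 kept direction and side of the threshold, 59 kept direction only and 1 changed sign. Calls made only under an alternative, such as MCL1 over vehicle in Aucklandiae Radix with class in the fit, are not in this tally. Many of the alternatives are leave-one-out fits, which share most of their libraries.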
